A study of Mus musculus with 48 samples.

Results

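The effect of the Q140 allele was measured in the striatum of mice that had lost 1 of their Msh3 alleles, by RNA sequencing of 8 Q140 Msh3+/- and 9 Msh3+/- libraries, 17 of the 48 libraries in the series. Both groups were chosen by genotype label alone. Q140 Msh3+/- mice were heterozygous for Q140, a knock-in that puts an expanded CAG repeat into Htt, and carried 1 lost Msh3 allele. Msh3+/- mice carried the same Msh3 genotype without the knock-in. All were C57BL/6 mice of 6 months, with 4 females and 4 males in Q140 Msh3+/- and 5 females and 4 males in Msh3+/-. The other groups, used only where named, were Q140 (8) and wild type (7), which keep both Msh3 alleles, and Q140 Msh3-/- (8) and Msh3-/- (8), which have lost both. A library is named by its group, a letter for sex and its number. Whether every library came from its own mouse is not in the labels; this is assumed, and the p-values measure the spread between libraries.

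Huntington's disease is caused by an expanded CAG repeat in HTT, and the medium spiny neurons (MSN) of the striatum are the cells it affects most. These neurons form a direct pathway, marked by the dopamine receptor Drd1, and an indirect pathway, marked by Drd2, and both signal through cyclic AMP. MSH3 belongs to a mismatch repair complex that acts on small loops in DNA, and it is required for the lengthening of CAG repeats in neurons of mouse models.

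Library totals ran from 40.2 to 52.8 M counts with a median of 45.7 M, and 19975 of 48795 genes had enough reads to be tested. The coefficient of variation between libraries of a group was 10.3%. Levels are in CPM, library-scaled counts, which compare libraries and not genes of different length. Changes are log2 fold changes of Q140 Msh3+/- over Msh3+/- with their standard error (SE) from edgeR's quasi-likelihood test. A gene rose, fell or changed where its Benjamini-Hochberg adjusted p over all genes was under 0.05. Msh3 itself had 73.0 to 81.8 CPM in Q140 Msh3+/- libraries with a median of 77.1, against 68.2 to 85.4 with a median of 78.4 in Msh3+/- libraries. Both lay above the 29.1 to 33.0 CPM of wild type libraries and below the 111 to 131 CPM of Msh3-/- libraries. Whole-gene counts thus separated the Msh3 genotypes in the order of the labels, but rose with lost alleles. Why they rose was not tested, and the labels are taken as given. Htt had 177 to 227 CPM in Q140 Msh3+/- libraries with a median of 214, against 205 to 226 with a median of 214 in Msh3+/- libraries (log2 change -0.02, SE 0.039, adjusted p = 0.824 by edgeR).

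Markers of tissue next to the striatum were uneven between libraries. Q140 Msh3+/- F1 had 4542 CPM summed over 15 choroid plexus and ependyma markers, where the other Q140 Msh3+/- libraries had 48.1 to 95.0 and the Msh3+/- libraries 29.8 to 116. The cortical marker score, the mean log2 CPM of 13 markers, was 3.60 in Msh3+/- F5 and at most 2.76 in the 16 other libraries, with Q140 Msh3+/- F4 at 2.76 and Msh3+/- M1 at 2.65; by Dixon's test only Q140 Msh3+/- F1 stood apart from its group, in the first of these scores. Counts are also given from the same fit without both libraries.

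Q140 changed 1289 genes on the Msh3+/- background, 6.45% of those tested. Of these, 592 rose (2.96%) and 697 fell (3.49%). The changes were small, with a median size of 0.217 on the log2 scale: 149 passed 1.5-fold, 92 of them rises and 57 falls, against 44 rises and 64 falls without Q140 Msh3+/- F1 and Msh3+/- F5. In 80 genes (0.401%) every Q140 Msh3+/- library was below every Msh3+/- library, and in 37 (0.185%) every one was above, a split that turned to 45 below and 94 above with libraries scaled by their totals. Without Q140 Msh3+/- F1 and Msh3+/- F5, 441 genes rose and 596 fell, and 928 of the 1289 were called again. Without Q140 Msh3+/- F1 alone 1254 genes were called, 1092 of them among the 1289. Without Msh3+/- F5 alone it was 997 genes, 958 of them among the 1289. With plate row, read from each library's well, as a covariate, 255 rose and 298 fell. With libraries scaled by their totals, 1796 rose and 413 fell, a share of 81.3% rises against 45.9%. In a fit of only these groups, 354 rose and 578 fell. At an unadjusted p under 0.05 the main fit had 3781 of the 19975 genes.

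The 5 falls with the smallest p were those of Ankrd35, Penk, Rbp4, Drd1 and Plcxd1. Penk, which encodes the enkephalin precursor of indirect-pathway neurons, had 1034 to 1564 CPM in Q140 Msh3+/- libraries with a median of 1209, against 1747 to 2267 with a median of 1896 in Msh3+/- libraries. It fell by 0.63 on the log2 scale (SE 0.0735, adjusted p = 2.18e-07 by edgeR), and the groups did not overlap. Drd1, the dopamine receptor of direct-pathway neurons, had 237 to 282 CPM in Q140 Msh3+/- libraries with a median of 250, against 326 to 343 with a median of 332 in Msh3+/- libraries. Its log2 change was -0.39 (SE 0.0481, adjusted p = 4.5e-07 by edgeR), with no overlap. The smallest p of all belonged to Ankrd35, an ankyrin-repeat protein, with 8.81 to 11.9 CPM in Q140 Msh3+/- libraries and a median of 9.62, against 13.8 to 18.2 and a median of 17 in Msh3+/- libraries. Ankrd35 changed by -0.71 (SE 0.0684, adjusted p = 1.18e-09 by edgeR). Rbp4, which carries retinol, had 5.50 to 7.15 CPM in Q140 Msh3+/- libraries and 8.44 to 10.2 CPM in Msh3+/- libraries, a log2 change of -0.57 without overlap. Plcxd1, with a phospholipase C-like domain, changed by -0.48.

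Rises with the smallest p were in genes of other functions. Fam126a encodes hyccin, part of a complex that makes phosphatidylinositol 4-phosphate at the plasma membrane. It had 20.8 to 28.8 CPM in Q140 Msh3+/- libraries with a median of 22.7, against 14.1 to 21.0 with a median of 16.8 in Msh3+/- libraries, and rose by 0.49 (SE 0.0573, adjusted p = 2.18e-07 by edgeR). All but 1 of the Q140 Msh3+/- libraries were above every Msh3+/- library. Npr2, the receptor guanylyl cyclase for C-type natriuretic peptide, had 50.8 to 56.2 CPM in Q140 Msh3+/- libraries and 38.3 to 45.7 CPM in Msh3+/- libraries, with no overlap and a log2 change of 0.32 (SE 0.0379). Ece2, an endothelin-converting enzyme, had 40.9 to 49.5 CPM in Q140 Msh3+/- libraries and 31.5 to 39.7 CPM in Msh3+/- libraries, again without overlap (log2 change 0.37, SE 0.0478). The immunoglobulin-like receptor Ildr2 and the leucine-rich repeat protein Lrrn3 each rose by 0.38.

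**Figure D1:**
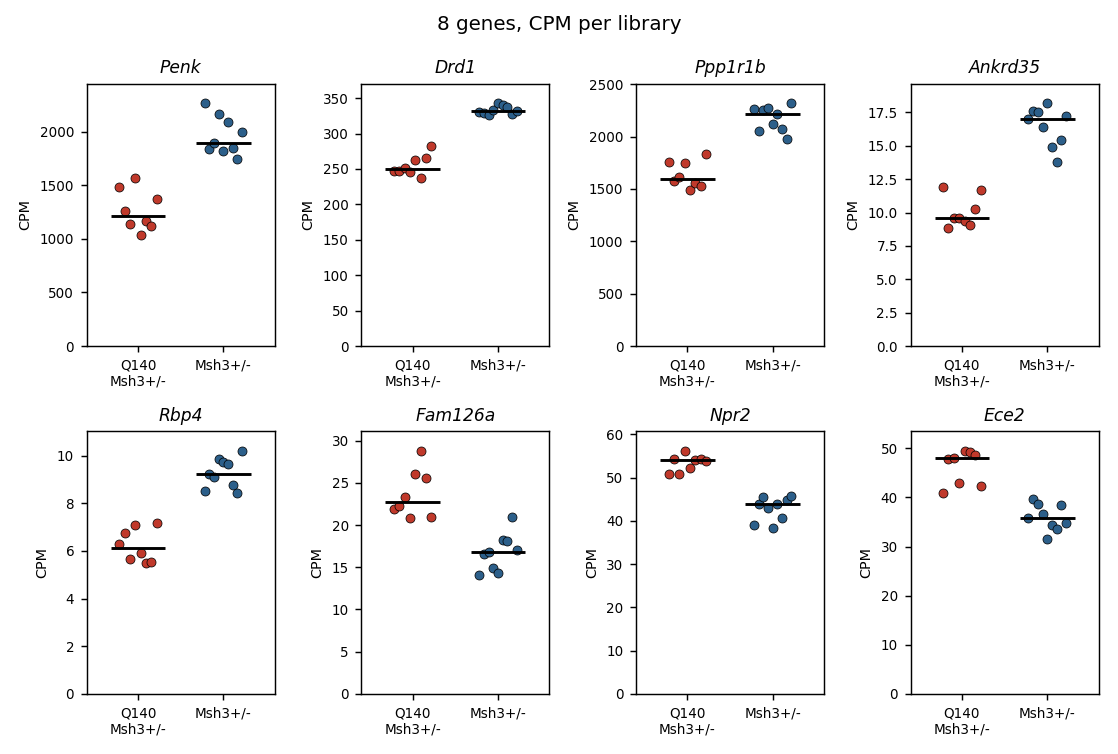
CPM of 8 genes in each of the 8 Q140 Msh3+/- libraries (left of each panel) and 9 Msh3+/- libraries (right), with points for libraries, lines for group medians and axes that start at 0. In Penk, Drd1, Ppp1r1b, Ankrd35 and Rbp4 the Q140 Msh3+/- libraries lie below all Msh3+/- libraries, in Npr2 and Ece2 above them, and in Fam126a 1 Q140 Msh3+/- library overlaps.

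The promoters of the 3 falls and 3 rises with the smallest p that have an entry in the RefSeq promoter table are given. Members of a set share a direction because they were chosen by it. Each runs 5′ to 3′ on the gene's strand, with 250 bases before the start and 50 after it, on GRCm38.p6. Capitals mark GGGCGG, the Sp1 letters, on either strand. The falls lie at chr3:96669881-96670180 (plus strand) for Ankrd35, chr19:38125272-38125571 (minus) for Rbp4 and chr13:54055609-54055908 (minus) for Drd1. The rises lie at chr5:24030263-24030562 (minus) for Fam126a, chr4:43631685-43631984 (plus) for Npr2 and chr16:20629601-20629900 (plus) for Ece2. Rbp4 and Drd1 have 2 starts in the table, and the first is shown.
Ankrd35: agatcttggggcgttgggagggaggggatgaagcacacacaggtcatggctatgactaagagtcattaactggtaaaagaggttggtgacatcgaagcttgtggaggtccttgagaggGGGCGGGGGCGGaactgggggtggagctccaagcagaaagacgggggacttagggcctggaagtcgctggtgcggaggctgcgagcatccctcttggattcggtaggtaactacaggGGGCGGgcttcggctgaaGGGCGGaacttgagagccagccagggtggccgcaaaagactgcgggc
Rbp4: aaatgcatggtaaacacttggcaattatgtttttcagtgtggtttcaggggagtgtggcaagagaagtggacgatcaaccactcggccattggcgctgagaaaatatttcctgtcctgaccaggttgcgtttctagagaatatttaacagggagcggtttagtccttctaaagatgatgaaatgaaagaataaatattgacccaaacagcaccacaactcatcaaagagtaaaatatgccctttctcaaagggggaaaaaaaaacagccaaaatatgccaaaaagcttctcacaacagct
Drd1: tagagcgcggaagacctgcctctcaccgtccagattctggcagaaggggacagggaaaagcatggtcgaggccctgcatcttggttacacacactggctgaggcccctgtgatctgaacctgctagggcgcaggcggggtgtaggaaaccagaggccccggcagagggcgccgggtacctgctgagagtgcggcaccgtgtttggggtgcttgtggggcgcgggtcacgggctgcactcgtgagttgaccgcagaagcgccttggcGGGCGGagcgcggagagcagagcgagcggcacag
Fam126a: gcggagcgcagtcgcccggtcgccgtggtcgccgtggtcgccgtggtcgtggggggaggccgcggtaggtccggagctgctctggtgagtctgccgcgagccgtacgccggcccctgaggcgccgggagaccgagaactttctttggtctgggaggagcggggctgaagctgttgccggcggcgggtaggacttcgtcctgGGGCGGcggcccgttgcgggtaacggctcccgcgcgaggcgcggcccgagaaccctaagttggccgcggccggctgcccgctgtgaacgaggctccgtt
Npr2: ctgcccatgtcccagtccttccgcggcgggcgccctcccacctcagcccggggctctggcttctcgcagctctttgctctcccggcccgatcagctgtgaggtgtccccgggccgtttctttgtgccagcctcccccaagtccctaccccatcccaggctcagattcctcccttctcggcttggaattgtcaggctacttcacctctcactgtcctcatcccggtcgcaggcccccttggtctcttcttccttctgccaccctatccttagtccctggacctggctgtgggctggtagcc
Ece2: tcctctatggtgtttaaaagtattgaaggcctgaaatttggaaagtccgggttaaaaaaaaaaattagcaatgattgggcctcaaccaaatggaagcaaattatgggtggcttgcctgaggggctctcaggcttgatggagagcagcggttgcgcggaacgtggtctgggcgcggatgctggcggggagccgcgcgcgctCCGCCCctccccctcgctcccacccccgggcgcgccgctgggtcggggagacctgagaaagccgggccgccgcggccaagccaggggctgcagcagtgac

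None of the 6 windows held TGACGTCA, the cyclic AMP response element, or GCGTGGGCG, the Egr letters, on either strand; these stand in 1.88% and 0.625% of all 27025 promoters of the table. GGGCGG matched 4 times in Ankrd35, the first pair adjoining, and once each in Drd1, Fam126a and Ece2, and 35.9% of all promoters hold it. The GC share ran from 40.7% in Rbp4 to 73.3% in Fam126a, where the median promoter has 52.7%. These windows show no letters that all members of a set share among the 3 motifs searched.

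Of 30 genes that mark MSN of either pathway, 22 fell and 0 rose, with a median log2 change of -0.24 where all genes had 0.00397. Over all genes 3.49% fell and 2.96% rose, the shares to set beside each list count below. In 8 of the 30 the groups did not overlap, all lower, where 0.401% of all genes were lower without overlap. The score, the mean log2 CPM of the 30, was 8.73 to 8.95 in Q140 Msh3+/- libraries with a median of 8.84, and 8.96 to 9.21 with a median of 9.08 in Msh3+/- libraries. Every Q140 Msh3+/- library was thus below every Msh3+/- library, the nearest being Q140 Msh3+/- M4 at 8.95 and Msh3+/- M3 at 8.96. In bulk tissue, fewer MSN and less RNA of these genes per MSN cannot be told apart. In each of the 3 plate rows that hold both groups (4 and 6 libraries) the Q140 Msh3+/- scores were below the Msh3+/- scores. The fit with plate row called 15 of the 30 as falls and none as rises, and the fit without Q140 Msh3+/- F1 and Msh3+/- F5 called 21 and none. With library totals 20 fell and 1 rose, with a median of -0.19.

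Among the shared MSN genes the largest fall was that of Scn4b. Scn4b, a sodium channel beta subunit, had 1181 to 1527 CPM in Q140 Msh3+/- libraries and 1698 to 2143 CPM in Msh3+/- libraries (log2 change -0.56, SE 0.0779, adjusted p = 5.17e-06 by edgeR). Ppp1r1b encodes DARPP-32, the dopamine- and cyclic AMP-regulated phosphatase inhibitor. It had 1494 to 1829 CPM in Q140 Msh3+/- libraries and 1979 to 2320 CPM in Msh3+/- libraries (log2 change -0.41). Pde10a, a phosphodiesterase abundant in MSN, had 1903 to 2396 CPM in Q140 Msh3+/- libraries and 2652 to 3349 CPM in Msh3+/- libraries (log2 change -0.50). None of these overlapped between the groups. The cannabinoid receptor Cnr1 fell by 0.55, the potassium channel Kcnh4 by 0.43, the phosphoprotein Arpp21 by 0.41, the protein kinase C isoform Prkcb by 0.38 and the adenylyl cyclase Adcy5 by 0.36. Smaller falls were in the transcription factors Rarb (-0.24) and Foxp1 (-0.19). The 8 that did not pass were Bcl11b (-0.16), Spata2l (-0.16), Actn2 (-0.12), Tmem158 (-0.12), Pde2a (-0.07), Gng7 (-0.07), Strip2 (0.07) and Tac1 (0.11).

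**Figure D2:**
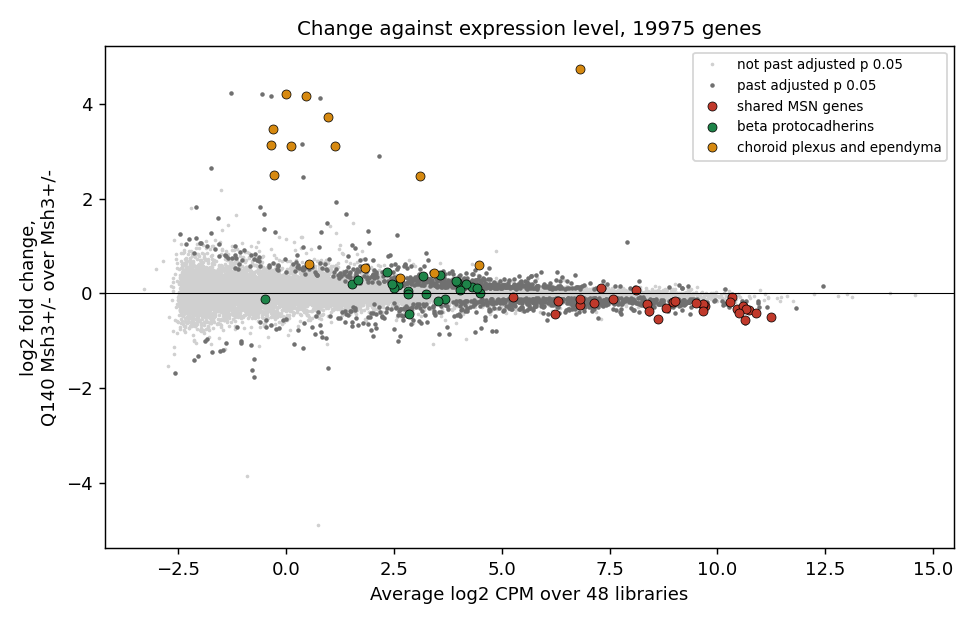
Log2 fold change of Q140 Msh3+/- over Msh3+/- (vertical) against the average log2 CPM over 48 libraries (horizontal) for each gene tested, with genes past an adjusted p of 0.05 in dark grey and 3 lists in colour. The shared MSN genes lie between -0.56 and 0.11 at high levels, and 10 choroid plexus and ependyma markers that 1 library carries stand at the top.

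Markers of the indirect pathway had a lower median change than those of the direct pathway, a difference that was not tested. Of 8 indirect-pathway markers tested, 4 fell and none rose, with a median of -0.27: Penk, the adenosine receptor Adora2a (-0.43), the orphan receptor Gpr6 (-0.42) and Drd2 (-0.36). Adora2a had 266 to 322 CPM in Q140 Msh3+/- libraries and 352 to 435 CPM in Msh3+/- libraries, without overlap. The other 4, Plxdc1 (-0.18), Grik3 (-0.05), Ptprm (-0.05) and Sp9 (0.03), did not pass. Of 10 direct-pathway markers, 2 fell and 1 rose, with a median of -0.05. With library totals 2 of the 10 fell and 3 rose, with a median of 0.00, so the direction of this list depended on the scaling. The muscarinic receptor Chrm4 fell by 0.28 beside Drd1, and Isl1, a transcription factor of direct-pathway neurons, rose by 0.26, with 16.3 to 20.5 CPM in Q140 Msh3+/- libraries and 13.9 to 18.4 CPM in Msh3+/- libraries. The peptide precursors Pdyn (0.00) and Tac1 (0.11) did not pass.

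In the cyclic AMP and phosphodiesterase list, 8 of 28 fell and none rose, with a median of -0.08. The list shares 7 members with the shared MSN genes, and beyond these the falls were in Arpp19 (-0.41), a phosphatase inhibitor, the phosphodiesterase Pde7b (-0.27) and the G protein subunit Gnb5 (-0.25). The catalytic subunits of protein kinase A, Prkaca and Prkacb, both stood at 0.00 and did not pass. Calcium signalling had 14 falls and no rise among 34 genes, with a median of -0.16. Atp2b1, a plasma membrane calcium pump, had 1501 to 1758 CPM in Q140 Msh3+/- libraries and 1803 to 2293 CPM in Msh3+/- libraries (log2 change -0.34, SE 0.063, adjusted p = 0.000297 by edgeR). The calcium channel subunits Cacnb2 (-0.32), Cacna2d3 (-0.23) and Cacna1e (-0.21), the calcineurin subunits Ppp3ca (-0.28) and Ppp3r1 (-0.20), and the store release channel Itpr1 (-0.32) also fell. With plate row as a covariate, 7 calcium genes fell, and with library totals 12 fell and 2 rose.

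Potassium channels went mostly the same way, with 10 of 37 lower and 1 higher at a median of -0.11. Kcnh4, Kcnab1 and Kcnj4 are shared with the MSN list, and Kcns2 (-0.26), Kcnh3 (-0.23), Kcnq5 (-0.21), Kcna1 (-0.20) and Kcnip3 (-0.16) were among the others. Kcng1, a modifier subunit of voltage-gated channels, was the rise: it had 61.3 to 77.6 CPM in Q140 Msh3+/- libraries and 42.6 to 59.0 CPM in Msh3+/- libraries, without overlap (log2 change 0.44, SE 0.0687, adjusted p = 2.69e-05 by edgeR). Of 33 glutamate and GABA receptor genes, 8 fell and none rose, with a median of -0.05. They included the metabotropic receptors Grm5 (-0.24) and Grm3 (-0.16), the NMDA subunits Grin2b (-0.18) and Grin1 (-0.14), the kainate subunit Grik2 (-0.16) and the GABA-A subunits Gabrd (-0.25) and Gabra4 (-0.19). The AMPA subunits Gria1 (0.02) and Gria2 (0.01) did not pass. With plate row as a covariate, 5 potassium channels and 3 receptors fell and Kcng1 rose; the receptor count was 4 with library totals, 5 without a count filter and 4 to 9 on leaving out single libraries, with the 4 from leaving out Msh3+/- F4.

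All 23 activity-regulated genes had a negative log2 change, from -0.97 to -0.01, with a median of -0.25, yet 2 passed. Egr3, an early transcription factor, had 90.3 to 127 CPM in Q140 Msh3+/- libraries with a median of 103, against 123 to 173 with a median of 132 in Msh3+/- libraries (log2 change -0.37, SE 0.0903, adjusted p = 0.00727 by edgeR). Homer1, a postsynaptic scaffold, had 170 to 219 CPM in Q140 Msh3+/- libraries and 219 to 341 CPM in Msh3+/- libraries (log2 change -0.39). Msh3+/- F1 was the highest library in both. Egr2 (-0.97), Arc (-0.53), Npas4 (-0.39) and Fos (-0.32) did not pass, and with plate row as a covariate none of the 23 did, with a median of -0.10.

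Beta protocadherins are adhesion proteins of neurons encoded in 1 gene cluster. Of 22 tested, 6 rose and 1 fell, with a median of 0.13. Pcdhb3 had 4.98 to 7.40 CPM in Q140 Msh3+/- libraries and 3.45 to 4.81 CPM in Msh3+/- libraries, without overlap (log2 change 0.46, SE 0.0774, adjusted p = 8.26e-05 by edgeR). Pcdhb13 (0.40), Pcdhb12 (0.37), Pcdhb22 (0.27), Pcdhb9 (0.24) and Pcdhb20 (0.21) also rose and Pcdhb8 (-0.43) fell. These genes resemble each other in sequence, and how the counting split shared reads is not given in the sources used here. With plate row as a covariate 4 rose and none fell. Among 32 Polycomb group genes, which keep developmental genes silent, Sfmbt2 (0.49) and Pcgf6 (0.19) rose and Sfmbt1 (-0.16) and Cbx7 (-0.11) fell. The Sfmbt2 call was lost without Q140 Msh3+/- F2 or M1, the Pcgf6 call without Q140 Msh3+/- M1 or Msh3+/- F4, the Sfmbt1 call without Q140 Msh3+/- F4 and the Cbx7 call in 6 of 17 fits that left out 1 library. With plate row as a covariate only Sfmbt1 of these passed. The Sfmbt1 and Cbx7 calls were also lost with library totals, where 4 of the 32 rose and 0 fell. Of 15 homeobox and other Polycomb-target factors tested, 0 passed in the main edgeR fit and 0 in DESeq2, with 2 at an unadjusted p under 0.05. With library totals edgeR called 2 of the 15 as rises.

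Leaving out clone names and genes with an average log2 CPM under 0, the 10 largest falls included weakly expressed genes. Levels differed, and Cpne9 had a median of 18.8 CPM in wild type libraries. All 10 were called again without Q140 Msh3+/- F1 and Msh3+/- F5. Wnt8b, a Wnt ligand, had 0.719 to 1.36 CPM in Q140 Msh3+/- libraries with a median of 0.998, against 1.36 to 5.12 with a median of 2.64 in Msh3+/- libraries (log2 change -1.56, SE 0.233, adjusted p = 1.41e-05 by edgeR). Mafa, a basic leucine zipper transcription factor, had 0.437 to 1.15 CPM in Q140 Msh3+/- libraries and 1.35 to 2.34 CPM in Msh3+/- libraries (log2 change -1.15), with no overlap. Aoah, a hydrolase of lipopolysaccharide, changed by -1.06 and also did not overlap. The endopeptidase Phex had a median of 4.04 CPM in Q140 Msh3+/- libraries and 9.33 CPM in Msh3+/- libraries. The Phex call was lost in a fit of only the groups compared. The others were Wnt4 (-0.95), the serine protease Tmprss6 (-0.91), the growth factor Fgf3 (-0.91), the glutathione peroxidase Gpx6 (-0.89), Dgat2l6 (-0.86) and the copine Cpne9 (-0.85). The Tmprss6 call was lost in 11 of the 17 fits that left out 1 library, and with plate row as a covariate.

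By the same limits the 10 largest rises were all highest in 1 library, Q140 Msh3+/- F1. They were Ttr, Slc4a5, Mfrp, Tmem72, Folr1, Prlr, F5, Kl, Col8a1 and Slc13a4, with log2 changes of 1.93 to 4.74. Ttr, the thyroxine carrier of the choroid plexus, had 3952 CPM in Q140 Msh3+/- F1, at most 41.0 in the other Q140 Msh3+/- libraries and 2.23 to 52.0 in Msh3+/- libraries. None of the 10 was called without it and Msh3+/- F5. Across the choroid plexus and ependyma list 10 of 15 markers were called higher, and 0 by edgeR without both libraries, where the median was -0.03 in place of 3.10. Enpp2, listed here with oligodendrocyte markers and also made by the choroid plexus, had 2121 CPM in that library and at most 200 in the other Q140 Msh3+/- libraries. Rises past 2-fold numbered 41 with these libraries and 6 without them, and falls past 2-fold numbered 18 and 16.

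Without both libraries, the 10 largest rises, a ranking chosen after seeing the data, included Ttn, Dsg1c, Abhd1, Tnnt2, Tmc3, Rprm, Pcdh20, Vill and Slc12a3, and all 10 were also called with them. Ttn, which encodes titin, had 1.77 to 3.10 CPM in Q140 Msh3+/- libraries with a median of 2.17, against 0.741 to 1.81 with a median of 1.07 in Msh3+/- libraries (log2 change 0.98, SE 0.168, adjusted p = 0.000117 by edgeR over all libraries). Pcdh20, a protocadherin outside the clusters, had 9.20 to 14.7 CPM in Q140 Msh3+/- libraries and 6.25 to 8.65 CPM in Msh3+/- libraries (log2 change 0.70), without overlap. The troponin Tnnt2 changed by 0.79, the villin-like protein Vill by 0.63 and the arrest-associated gene Rprm by 0.62, a call lost in a fit of only the groups compared. The call of the desmoglein Dsg1c (0.73) was lost without Q140 Msh3+/- M3 and with plate row as a covariate.

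The same lists were read beside the Q140 effect on the other Msh3 backgrounds, which share no libraries with this comparison. Q140 against wild type called 3969 genes (19.9%) and Q140 Msh3-/- against Msh3-/- called 15 (0.0751%). Of the 1289 genes called on the Msh3+/- background, 1041 were also called in Q140 against wild type, 80.8% of the first list and 26.2% of the second. All but Kcnj13, a channel of the choroid plexus, had the same sign. The 3969 genes called in Q140 against wild type had a median log2 change, signed by their direction there, of 0.11 in Msh3+/- and 0.049 in Msh3-/-, and 0.23 in the comparison that chose them. The sign was kept by 95.0% of them in Msh3+/- and by 81.6% in Msh3-/-, and 82.5% were larger in Msh3+/- than in Msh3-/-. Of the 15 genes called in Q140 Msh3-/- against Msh3-/-, 14 were called with the same sign on the Msh3+/- background, among them Penk, Ankrd35, Pde1b, Ddit4l, Kcng1, Ildr2 and Lrrn3. Papss2 was not.

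Named MSN genes lay between the other backgrounds. The median of the shared MSN list was -0.24 in Msh3+/- mice, -0.41 in Msh3+/+ mice (27 of 30 fell, 1 rose) and -0.12 in Msh3-/- mice (1 fell). For Penk the log2 changes were -0.63, -1.02 and -0.41 in the same order, and for Drd1 -0.39, -0.57 and -0.13. Penk had 1034 to 1564 CPM in Q140 Msh3+/-, 800 to 1218 in Q140 and 1318 to 1679 in Q140 Msh3-/- libraries, so these ranges overlap. Ddit4l, a relative of an mTOR inhibitor, had 15.5 to 24.9 CPM in Q140 Msh3+/- libraries and 29.1 to 45.1 CPM in Msh3+/- libraries, with log2 changes of -0.78, -1.64 and -0.61. For the beta protocadherins the medians were 0.13, 0.30 and 0.12.

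**Figure D3:**
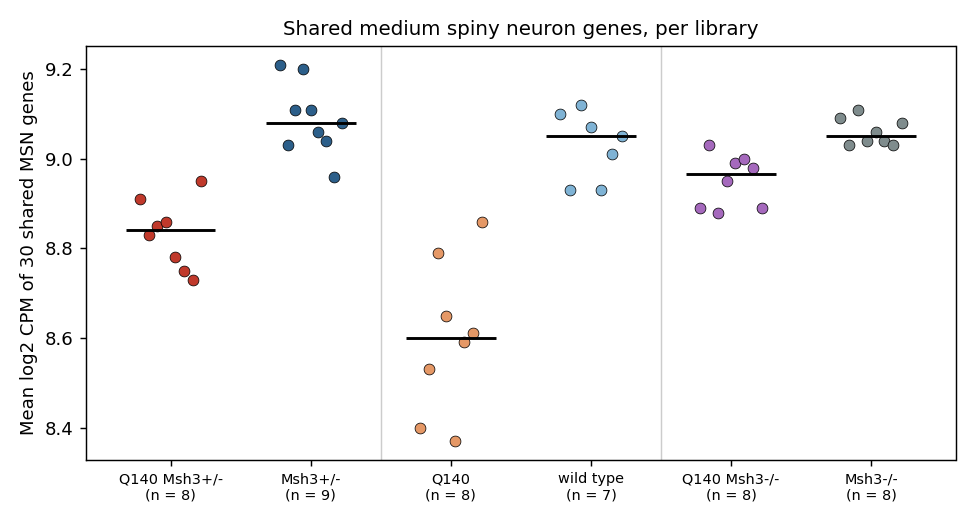
Mean log2 CPM of the 30 shared MSN genes in each library of the 6 groups, each Q140 group left of its comparison group, with lines for medians. The 8 Q140 Msh3+/- libraries lie between 8.73 and 8.95, all below the 9 Msh3+/- libraries at 8.96 to 9.21, and the 8 Q140 libraries reach down to 8.37.

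**Figure D4:**
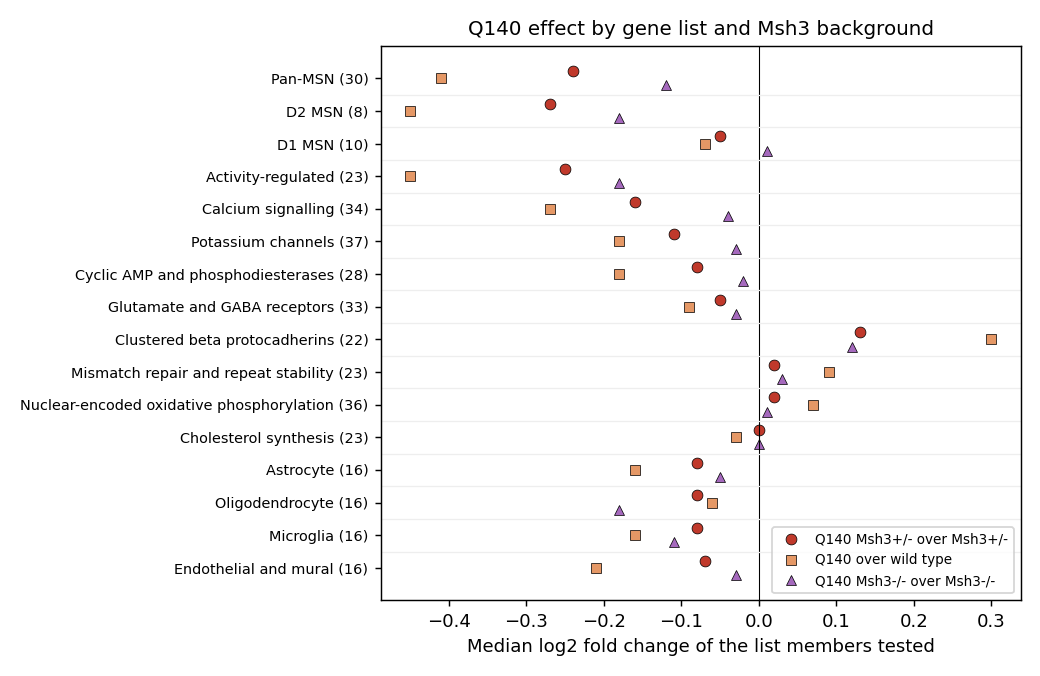
Median log2 fold change of the members tested (number in brackets) of 16 gene lists, for Q140 Msh3+/- over Msh3+/- (circles), Q140 over wild type (squares) and Q140 Msh3-/- over Msh3-/- (triangles). For the shared MSN genes the medians are -0.24, -0.41 and -0.12 in that order, and for the beta protocadherins 0.13, 0.30 and 0.12.

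The differences between backgrounds were tested gene by gene as interactions and none passed. The Q140 effect in Msh3+/- minus that in Msh3+/+ had 0 genes called by edgeR (0%) and 19 by DESeq2, with 1621 of 19975 genes at an unadjusted p under 0.05. About 999 are expected at that limit by chance, here and in the contrasts that follow. Without the library Q140 M4, edgeR called 24. The Q140 effect in Msh3+/- minus that in Msh3-/- had 0 by edgeR (0%) and 0 by DESeq2, with 1220 at an unadjusted p under 0.05, and 1 in a fit of only the groups compared. A gene called on 1 background and not on another is therefore not shown to differ. There were 248 genes called in Msh3+/- and not in Q140 against wild type, of which 170 rose and 78 fell, and 90 of them were still called without Q140 Msh3+/- F1 and Msh3+/- F5. By smallest p they were led by the rises of Capn6 (0.82 in Msh3+/-, 0.38 in Msh3+/+), Pomt1 (0.23 and 0.12), Zfp52 (0.36 and 0.17) and Slc12a3 (0.79 and 0.38), and by the falls of Gpcpd1 (-0.22 and -0.13), Ass1 (-0.17 and -0.10), Gal3st3 (-0.19 and -0.07) and Pcmt1 (-0.13 and -0.05). In the reverse direction, the rise of the Polycomb gene Cbx8 (0.18 in Msh3+/-, 0.69 in Msh3+/+) and the falls of Gpr26 (-0.26 and -0.64) and Il2rb (-0.48 and -1.25) passed only against wild type. The smallest interaction p among these was that of Cbx8 (adjusted p = 0.113 by edgeR). The Q140 effect was also compared between females and males: edgeR called 0 genes (0%) and DESeq2 2, with 1024 at an unadjusted p under 0.05. Penk changed by -0.55 in females and -0.71 in males, and Drd1 by -0.42 and -0.35.

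Genes close to Htt were counted because both groups differ at this locus. Within 5 Mb of Htt, which spans chromosome 5 from 34761740 to 34912534 on GRCm38, 15 of 152 genes tested rose and 7 fell, or 14.5%, beside 6.45% of all genes; the difference was not tested. Within 20 Mb it was 22 and 9 of 358, or 8.66%. Fam126a, named above among the rises with the smallest p, is one of these and lies over 10 Mb from Htt. Of the 22 within 5 Mb, 20 were also called in Q140 against wild type. The nearest were Mfsd10 (0.22) and Dok7 (0.18), which rose, and the cytoskeletal protein Add1 (-0.13) and the adrenergic receptor Adra2c (-0.22), which fell.

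Of the 5 largest changes called within 5 Mb of Htt, 4 separated 1 library from its group; these genes were chosen after the values were seen, and all lie on the low-coordinate side of Htt. Gm2420, at 32720330 to 32736194 and 2.03 Mb from Htt, had 0.621 to 0.934 CPM in 7 Q140 Msh3+/- libraries, 0.0616 in Q140 Msh3+/- M2 and 0.0220 to 0.0694 in Msh3+/- libraries (log2 change 4.23, SE 0.549, adjusted p = 1.32e-06 by edgeR). Abhd1, a hydrolase gene 3.81 Mb away, had 6.74 to 8.62 CPM in the 7, 3.63 in M2 and 3.18 to 4.61 in Msh3+/- libraries. Dpysl5, which acts in axon guidance and lies 3.96 Mb away, had 54.2 to 65.3 CPM in the 7, 48.6 in M2 and 37.5 to 50.3 in Msh3+/- libraries. Atraid, 3.71 Mb away, went the other way, with 28.8 to 34.0 CPM in the 7, 36.8 in M2 and 36.2 to 42.5 in Msh3+/- libraries. In these 4 genes M2 lay within the Msh3+/- range and outside that of the 7. Gm42847, the fifth and at 0.77 Mb the nearest to Htt, did not separate M2: it had 2.59 to 4.26 CPM in the 7, 3.98 in M2 and 2.59 to 3.46 in Msh3+/- libraries. The shared MSN score of Q140 Msh3+/- M2, 8.75, was the second lowest of all 17 libraries, within the Q140 Msh3+/- range. Gm2420 was at 0.739 to 1.06 CPM in Q140 libraries and 0 to 0.0714 in wild type libraries, and ran from 0 to 0.782 in Q140 Msh3-/- libraries. Without M2 the log2 changes were 4.41 for Gm2420, 0.90 for Abhd1, 0.41 for Dpysl5 and -0.34 for Atraid. Gm42847 went from 0.29 to 0.26 without M2 and lost its call (adjusted p = 0.0937 by edgeR).

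**Figure D5:**
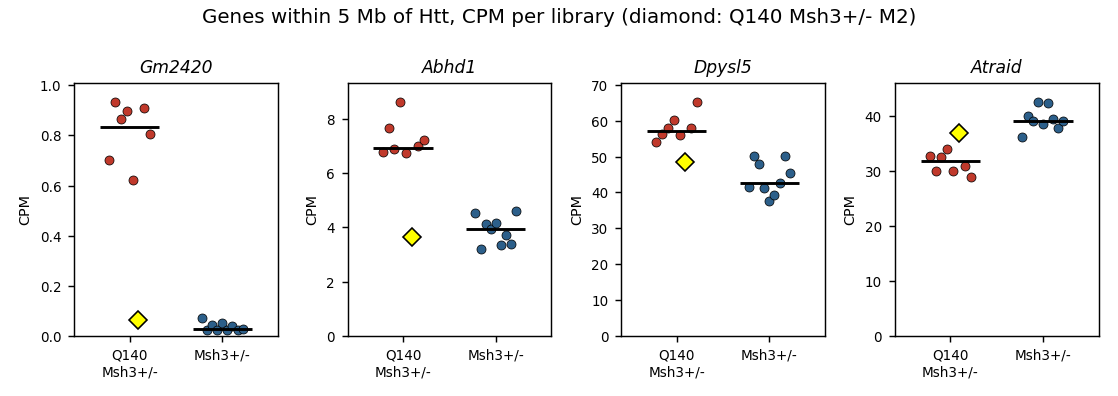
CPM of 4 genes within 5 Mb of Htt in each of the 8 Q140 Msh3+/- libraries (left of each panel) and 9 Msh3+/- libraries (right), with lines for medians, axes that start at 0 and Q140 Msh3+/- M2 as a diamond. In each gene M2 lies among the Msh3+/- libraries, as at 0.0616 CPM in Gm2420 where the other 7 have 0.621 to 0.934.

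Markers of other cells were read beside the 6.45% of all genes called, and beside the 3781 of 19975 at an unadjusted p under 0.05. Of 16 astrocyte markers, 3 fell: the bicarbonate transporter Slc4a4 (-0.21), the glycolytic enzyme Aldoc (-0.14) and the sodium pump subunit Atp1b2 (-0.13), at a list median of -0.08. The calls of Aldoc and Atp1b2 were lost in 5 and 10 of the 17 fits that left out 1 library. Their summed level was 5234 to 6051 CPM in Q140 Msh3+/- libraries and 5997 to 6940 CPM in Msh3+/- libraries over the whole list. Without Q140 Msh3+/- F1 and Msh3+/- F5, 1 astrocyte marker fell. Of 16 oligodendrocyte markers, Enpp2 rose and none fell, with a list median of -0.08 and 8 at an unadjusted p under 0.05. DESeq2 called 2 of them as falls, a fit of only the groups compared 4, and the fit without Q140 Msh3+/- F1 and Msh3+/- F5 none in either direction. Their summed level was 5439 to 8084 CPM in Q140 Msh3+/- libraries, the highest in F1, and 6023 to 7360 CPM in Msh3+/- libraries. None of 16 microglia, 16 endothelial and mural, 12 oligodendrocyte precursor, 8 cholinergic interneuron and 13 cortical markers passed in edgeR or DESeq2, and 1, 1, 0, 2 and 3 of them had an unadjusted p under 0.05. Their list medians were -0.08, -0.07, -0.06, -0.08 and -0.19 in that order. The cyclic AMP and receptor lists above had medians of -0.08 and -0.05. Without Q140 Msh3+/- F1 and Msh3+/- F5 the cortical median was 0.26. Of 12 GABAergic interneuron markers, at a list median of -0.07, Nos1 (-0.19) fell, a call lost in 5 of those 17 fits and with plate row as a covariate. The cortical sums were 198 to 244 CPM in Q140 Msh3+/- libraries and 191 to 343 CPM in Msh3+/- libraries. The part of other cell types in the MSN changes was not tested.

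Of 23 mismatch repair and repeat-stability genes, 0 passed in edgeR, 2 in DESeq2 and 1 in limma-voom, with a median log2 change of 0.02. Beside 3781 of all 19975 genes, 5 of the 23 had an unadjusted p under 0.05. In other edgeR fits 4 rose with library totals, 2 with a filter of 1 CPM in 24 libraries and 1 without Q140 Msh3+/- F1 and Msh3+/- F5, and leaving out single libraries gave 0 to 2 calls, the 2 without Q140 Msh3+/- M4. The nearest were Rrm2b, a ribonucleotide reductase subunit, at 0.11 (adjusted p = 0.0535 by edgeR) and the deacetylase Hdac3 at 0.08 (adjusted p = 0.0712 by edgeR). Fan1, a nuclease, stood at -0.01. Of 22 p53 and DNA damage genes, 2 fell, a share near the 6.45% of all genes: Ddit4l and the kinase Plk2 (-0.20), the second a call lost with plate row as a covariate.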

How the data were processed

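RNA of the striatum was measured by sequencing; per the labels, RNA was extracted with an RNeasy kit and libraries were stranded TruSeq libraries. The authors' deposited table holds unscaled whole-number read counts per gene. STAR 2.7.5c, SAMtools 1.10 and HTSeq 0.12.3 on GRCm38 are named in the submitters' processing notes; the annotation release and the strand setting are not given in the sources used here. A deposited FPKM table was not used.

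In R 4.3.3 and edgeR 4.0.16, 1 model was fitted to the counts of all 48 libraries: filterByExpr (minimum count 10, minimum total 15), TMM scaling, robust glmQLFit with 6 group means plus sex, and contrasts by glmQLFTest, two-sided, adjusted by Benjamini-Hochberg over all genes with a threshold of 0.05. Untested genes numbered 28820 and took 0.0383% of all counts. Scores are means of log2 CPM with a prior count of 2. Counting error limits weakly expressed genes; differences between libraries limit the rest. No 2 libraries of a group agreed within sampling noise (chi-square per degree of freedom of at least 6.82).

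The comparison, the 30 gene lists and the rules for named genes were chosen with earlier results of these data known. Named genes are Msh3, Htt, the 10 largest rises and falls past the threshold (average log2 CPM of at least 0, no clone name), the 5 smallest p in each direction, up to 4 called members of each list or 2 as values, and the 4 smallest p in each direction of genes called on the Msh3+/- or the Msh3+/+ background only; a few others were named after their values were seen, and some genes that the rules name are not reported here. List genes were matched by symbol, all but 3. Coordinates are from GENCODE M21 on GRCm38 and promoters from RefSeq on GRCm38.p6; Penk has no entry there. Alternatives were RLE scaling, library totals, DESeq2 1.42.0, no sex term, a fit of the compared groups alone, no count filter, a filter of 1 CPM in 24 libraries, a block for replicate number, plate column or plate row as a covariate, limma-voom (limma 3.58.1) with animal code stems as random blocks, each library left out, and Q140 Msh3+/- F1 and Msh3+/- F5 left out together.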

Additional observations from a re-analysis of the deposited data

Results flagged for a closer look

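Each item here is a library whose gap to the nearest library of its own group is large for the range of that group, by Dixon's test. Of 302 sets of values tested, 36 met this. Chance gives about 1 in 20 for independent sets that were not chosen by their values. The sets here include the 10 largest rises, all highest in Q140 Msh3+/- F1, so the 36 cannot be read against that share.

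Q140 Msh3+/- F1 accounts for 17 of them. Its choroid plexus and ependyma score was 5.04 log2 CPM, where the next Q140 Msh3+/- library had 0.974. In CPM it had 3952 for Ttr, 43.2 for Slc4a5, 54.3 for Mfrp, 58.3 for Tmem72, 24.8 for Folr1, 56.1 for Prlr, 115 for F5, 178 for Kl, 26.0 for Col8a1, 35.0 for Slc13a4, 21.0 for Sostdc1 and 2121 for Enpp2, against at most 41.0, 0.391, 0.457, 0.826, 0.630, 1.33, 2.37, 5.67, 0.766, 3.46, 0.345 and 200 in the other libraries of its group. The same library was also high in Zic4 (3.57 CPM) and Capn6 (2.59 CPM) and low in Lrrn3 (43.0 CPM) and Pim2 (31.0 CPM). Capn6 kept its call without this library and Msh3+/- F5, at a log2 change of 0.62 in place of 0.82.

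In the other Q140 Msh3+/- libraries, F2 was high in the interferon score (1.79 log2 CPM, next 1.12). F4 was low in Htt (177 CPM, next 205) and Slc4a4 (281 CPM) and high in Pmvk (23.7 CPM). M2 was low in Abhd1 (3.63 CPM, next 6.74) and high in Cux2 (21.3 CPM), M3 was low in the microglia gene Fcrls (10.5 CPM) and M4 high in Gabrd (112 CPM).

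Among Msh3+/- libraries, F1 was high in the heat shock score (6.12 log2 CPM), the interferon score (1.63), Egr3 (173 CPM), Homer1 (341 CPM) and Bst2 (1.67 CPM). M2 was low in the microglia score (4.15 log2 CPM) and in Atp1b2 (354 CPM). M3 was high in Slc13a4 (3.75 CPM), F5 in Gpx6 (13.7 CPM) and M4 in Hbb-bs (12.3 CPM), and M1 was low in Slc4a4 (395 CPM).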

How the results depend on the processing

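Of the 1289 genes called, the number moved by over 1.5 times in 2 settings: 2209 with library totals (1796 higher, 413 lower) and 553 with plate row as a covariate (255 higher, 298 lower). Both groups are present in 3 plate rows and 5 hold 1 of them. With only the groups compared, 354 were higher. Leaving out single libraries gave 980 to 1366 genes, 458 to 633 higher and 507 to 744 lower. Non-overlapping genes numbered 94 higher and 45 lower with library totals. Q140 against wild type gave 6180 with library totals and 3242 to 4468 on leaving out single libraries. The 15 genes of Q140 Msh3-/- against Msh3-/- became 29 with DESeq2, 9 with no count filter, 9 with no sex covariate, 23 with only the groups compared, 8 with plate column, 2 with plate row and 5 to 17 on leaving out single libraries. The interaction against Msh3+/+ gave 19 with DESeq2 and 0 to 24 on leaving out single libraries, the interaction against Msh3-/- 1 with only the groups compared, and the sex difference 2 with DESeq2.

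Without Q140 Msh3+/- F1 and Msh3+/- F5 together, the log2 changes that reversed were Ttr -0.578, Slc4a5 -0.575, Mfrp -0.529, Tmem72 -0.063, Prlr -0.055, F5 -0.259, Kl -0.015, Col8a1 -0.146, Slc13a4 -0.007, Enpp2 -0.045 and Sostdc1 -0.030. On leaving out single libraries, with the lowest value in each case without Q140 Msh3+/- F1, Col8a1 ran from -0.145 to 2.675, Enpp2 ran from -0.048 to 1.216, F5 ran from -0.202 to 3.139, Mfrp ran from -0.412 to 4.414, Prlr ran from -0.055 to 3.349, Slc4a5 ran from -0.486 to 4.460, Tmem72 ran from -0.005 to 4.011 and Ttr ran from -0.447 to 5.120.

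Replicate numbers are shared between the groups but do not pair the libraries: the correlations of same-numbered libraries ran from -0.071 to 0.071 over 8 pairs. With replicate number as a block, 1006 genes were called, 954 of them in common. The calls lost in these settings have a cause that was not tested. With 8 and 9 libraries, changes of weakly expressed genes are the least precise.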

Other observations

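Several lists that the comparison was not drawn up for passed in few members. In cholesterol synthesis, 2 of 23 genes fell and 1 rose: the regulator Srebf2 (-0.17) and the thiolase Acat2 (-0.20) fell and the kinase Pmvk (0.14) rose. The Acat2 call was lost without Msh3+/- F5, the Pmvk call without Q140 Msh3+/- F4, and all 3 with plate row as a covariate. Of 36 nuclear-encoded oxidative phosphorylation genes, Ndufs3 (-0.13), a subunit of complex I, fell and Cyc1 (0.12), of complex III, rose, a count near the 6.45% of all genes called. The Ndufs3 call was lost with plate row as a covariate and with library totals, and the Cyc1 call in 12 of 17 fits that left out 1 library. With library totals 6 of the 36 rose and none fell. None of the 13 mitochondrially encoded genes was called by edgeR, with 0 at an unadjusted p under 0.05 and 0 called by DESeq2.

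No member was called by edgeR among 24 heat shock and 24 interferon response genes. At an unadjusted p under 0.05 there were 5 heat shock and 0 interferon genes, beside 3781 of all 19975 genes. DESeq2 called 0 in each list. The nearest heat shock gene was the chaperone Hspa4, at 197 to 228 CPM in Q140 Msh3+/- libraries and 210 to 272 CPM in Msh3+/- libraries (log2 change -0.11, adjusted p = 0.128 by edgeR). Of 12 septal, pallidal and thalamic markers and 5 blood genes none was called by edgeR, and 0 in each by DESeq2, with summed levels of 183 to 197 CPM in Q140 Msh3+/- libraries and 177 to 198 CPM in Msh3+/- libraries for the first.

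Of 10 sex-linked genes, Tsix rose: it had 1.03 to 2.17 CPM in Q140 Msh3+/- libraries and 0.741 to 1.38 CPM in Msh3+/- libraries (log2 change 0.61, SE 0.183, adjusted p = 0.0335 by edgeR). Tsix lies antisense to Xist, and without the strand setting of the counting their reads cannot be told apart. The call was lost in 6 of 17 fits that left out 1 library and with plate row as a covariate.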
